A study of Drosophila melanogaster with 12 samples.

Results

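The gene of heterochromatin protein 1a (HP1a, FlyBase FBgn0003607), its paralogs HP1b and HP1c, and the genes of 6 partner proteins of heterochromatin were followed in Drosophila melanogaster larvae, in the salivary gland and the wing imaginal disc. HP1a stands below for that gene as well as for its protein. The partners were HP4, HP5, Su(var)3-7, Su(var)2-HP2, Su(var)2-10 and ADD1. The 9 genes were taken by FlyBase symbol from the 17807 gene IDs counted, as HP1 paralogs and HP1 partners, and all 9 had enough counts to be tested in every comparison.

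HP1a binds histone H3 methylated at lysine 9 (H3K9) through its chromodomain and dimerizes through its chromoshadow domain, which also recruits partner proteins. The mark is laid by methyltransferases that include Su(var)3-9, which acts mainly in pericentric heterochromatin, and SetDB1, encoded by egg. HP1a and several of its partners are known as suppressors of position-effect variegation, in which a gene placed next to heterochromatin is silenced in some cells. The larval salivary gland is a polytene tissue whose heterochromatin is under-replicated, whereas the wing disc is made of diploid dividing cells.

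The study asked which transcripts differ between larvae mutant for both methyltransferases and Oregon R larvae. Polyadenylated RNA was sequenced from 3 libraries in each of 4 groups, all from larvae at stage L3 kept at 25 °C. Mutant-labelled glands carried the alleles egg_1473 and Su(var)3-9_06, as did mutant-labelled discs, and control glands and control discs came from OregonR. Each library pooled the RNA of 25 glands or of 25 pairs of discs. No genetic background of the mutant alleles other than the allele names is given, so genotype and strain cannot be told apart. The mRNA enrichment on oligo-dT beads was repeated for glands alone, so tissue and library preparation cannot be told apart either. The labels speak of technical replicates, so the p-values below measure the spread between these libraries, which may be technical.

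Depth was 17418224 to 57591665 gene counts per library. In glands 40.75 to 46.0% of counts fell on the top 20 genes, and in discs 10.02 to 12.3%. Salivary gland markers (10 genes, summed) reached 404820 to 509673 normalized CPM (read counts scaled to the depth of a library) in glands, against 2086 to 3289 CPM in discs. All 9 wing disc markers were lower in glands than in discs. Glands varied more between libraries than discs, with a common biological coefficient of variation of 0.292 against 0.102. The CPM of single genes in this paragraph are scaled within each tissue, so those of glands and discs cannot be set against each other. Su(var)3-9 averaged 81.1 ± 27.1 CPM in mutant-labelled glands and 2.48 ± 0.431 CPM in control glands (SD, n = 3 each), which goes against the label, whereas it averaged 3.98 ± 0.801 CPM in mutant-labelled discs and 25.0 ± 0.600 CPM in control discs. Of its exon length, 14.8% is shared with eIF2gamma on the same strand. eIF2gamma averaged 119 CPM in mutant-labelled and 111 CPM in control glands, and 306 CPM in mutant-labelled and 278 CPM in control discs. It did not pass the test in either tissue. The level of egg was 7.30 ± 0.476 CPM in mutant-labelled glands and 7.80 ± 2.49 CPM in control glands, and 132 ± 6.49 CPM in mutant-labelled discs and 136 ± 5.63 CPM in control discs. Neither difference of egg passed the test. RNA levels alone do not show which alleles the libraries carried, so the libraries are called mutant-labelled throughout.

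Levels of different genes, and of the tissues, are compared as normalized CPM per kb of exon, scaled over all 12 libraries. HP1a (2L:8209626-8211122, minus strand, BDGP6) was the most abundant of the 9 in every group. It averaged 72.6 ± 17.8 per kb in mutant-labelled glands and 71.8 ± 8.71 in control glands, and 224 ± 18.2 per kb in mutant-labelled discs and 236 ± 4.98 in control discs (SD, n = 3 each). In control discs its level stood at the 98.5th percentile of the genes tested, and in control glands at the 89.5th.

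HP1c (3R:22745620-22746605, plus strand), a euchromatic paralog that works with the zinc-finger proteins WOC and ROW, ranked 2 in glands. It averaged 34.75 ± 6.16 per kb in mutant-labelled glands and 31.0 ± 3.60 in control glands, and 42.2 ± 3.89 per kb in mutant-labelled discs and 39.8 ± 0.483 in control discs. HP1b (X:9081063-9082746, plus strand), a paralog found in both euchromatin and heterochromatin, averaged 8.62 ± 2.25 per kb in mutant-labelled glands and 7.34 ± 3.52 in control glands, and 33.5 ± 2.44 per kb in mutant-labelled discs and 38.6 ± 1.15 in control discs. The levels of HP1c and HP1b overlapped between libraries in control discs but in no other group.

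Among the partners, HP4 (3L:7975438-7976154, minus strand), an HP1-interacting protein, ranked 2 in discs and 3 in glands. It averaged 20.01 ± 3.03 per kb in mutant-labelled glands and 9.96 ± 1.07 in control glands, and 54.2 ± 6.27 per kb in mutant-labelled discs and 44.8 ± 3.78 in control discs. Su(var)3-7 (3R:13264364-13270038, plus strand), a zinc-finger protein of pericentric heterochromatin, averaged 11.1 ± 0.826 per kb in mutant-labelled glands and 8.82 ± 1.35 in control glands, and 18.6 ± 0.266 per kb in mutant-labelled discs and 21.2 ± 0.418 in control discs. Su(var)2-10 (2R:9116122-9122000, plus strand), a SUMO ligase of the PIAS family that links target recognition to SetDB1 recruitment, averaged 7.14 ± 0.701 per kb in mutant-labelled glands and 8.70 ± 1.67 in control glands, and 20.6 ± 0.791 per kb in mutant-labelled discs and 24.4 ± 0.245 in control discs. The order HP4, Su(var)2-10, Su(var)3-7 held in both disc groups without overlap of neighbours, while in control glands HP4 overlapped Su(var)3-7 and Su(var)3-7 overlapped Su(var)2-10.

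ADD1, HP5 and Su(var)2-HP2 were the lowest of the 9 genes in every group but mutant-labelled glands, where ADD1 ranked 5. ADD1 (2R:11970686-11977721, plus strand), which holds an ADD domain like that of human ATRX and binds HP1a, averaged 9.24 ± 1.34 per kb in mutant-labelled glands and 4.27 ± 0.717 in control glands, and 16.6 ± 0.540 per kb in mutant-labelled discs and 11.7 ± 0.0284 in control discs. HP5 (X:11454786-11459227, plus strand), another HP1-interacting protein, averaged 3.71 ± 0.246 per kb in mutant-labelled glands and 3.72 ± 0.704 in control glands, and 15.1 ± 0.500 per kb in mutant-labelled discs and 15.1 ± 0.733 in control discs. Su(var)2-HP2 (2R:14607154-14618118, minus strand), a large protein that binds the chromoshadow domain of HP1a, averaged 2.65 ± 0.578 per kb in mutant-labelled glands and 3.21 ± 0.621 in control glands, and 11.5 ± 0.686 per kb in mutant-labelled discs and 14.97 ± 0.875 in control discs. ADD1 was the lowest of the 9 in control discs and stood above HP5 and Su(var)2-HP2, with no overlap of libraries, in mutant-labelled discs. In control glands every neighbouring pair from HP4 down to Su(var)2-HP2 overlapped between libraries, so their order there is not resolved.

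**Figure D1:**
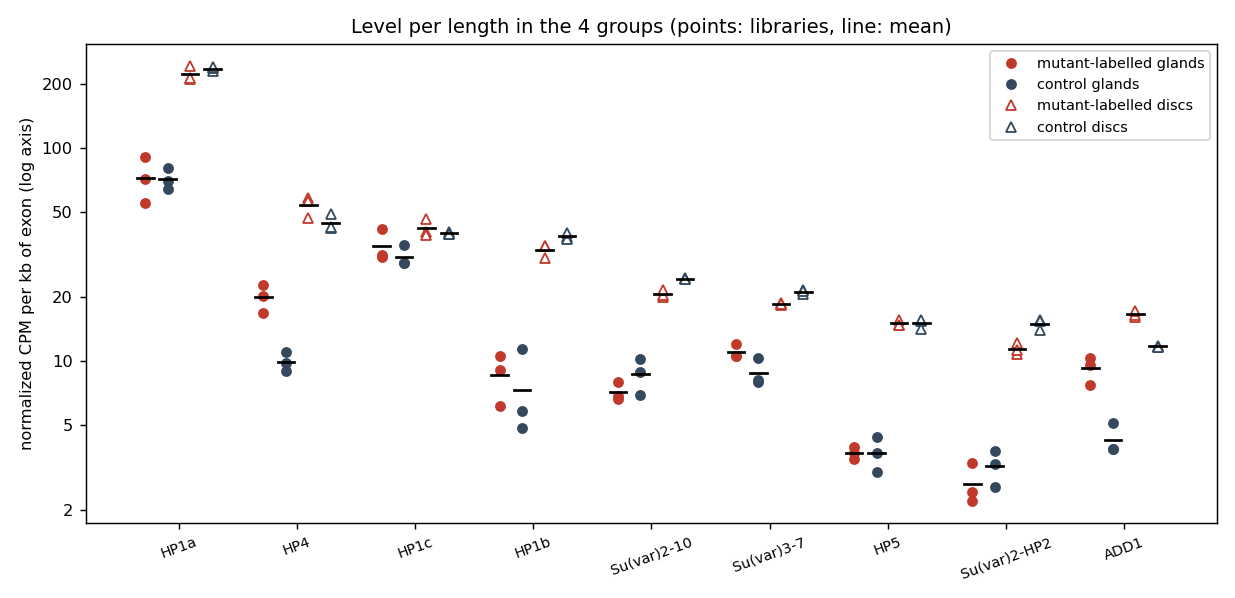
Normalized CPM per kb of exon (log axis) of each of the 9 genes in each library, by group, with the group mean as a line. HP1a lies highest in every group, and for HP4 and ADD1 the mutant-labelled glands lie above the control glands.

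Between the tissues, 8 of the 9 genes were lower in control glands than in control discs, where 41.1% of the 9402 genes tested were lower (edgeR's quasi-likelihood test, adjusted p under 0.05 by Benjamini-Hochberg, used throughout). The log2 difference was -2.37 ± 0.29 (SE) for HP1b, -2.18 ± 0.16 for Su(var)2-HP2, -2.13 ± 0.15 for HP4 and -1.96 ± 0.17 for HP5. It was -1.67 ± 0.15 for HP1a, and for Su(var)2-10, ADD1 and Su(var)3-7 it lay between -1.44 and -1.22. HP1c differed least of the 9, by -0.31 (95% interval -0.62 to -0.013, adjusted p = 0.0534), although its 3 gland libraries all lay below its 3 disc libraries. The median difference of the 9 genes was -1.67, against -0.084 over all genes tested.

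The mutant-labelled libraries, which share none with that comparison, gave 8 of 9 genes lower in glands, where 42.2% of 9847 genes were. The log2 difference was -1.61 ± 0.19 for HP1a, -1.42 for HP4 and -0.84 for ADD1, and HP1c again did not pass (-0.27, adjusted p = 0.155). The value for HP1c depended on the scaling, as did those of the other 8 genes. Over 15 alternatives the log2 difference in controls reached -3.05 for HP1a, -3.51 for HP4 and -3.73 for HP1b. With total counts as library sizes, which shifted the median of all genes by -1.38 on the log2 scale in controls, the log2 difference of HP1c in controls was -1.69 and passed the test (adjusted p = 1.28e-05). In controls it passed in 7 of 15 alternatives, among them without gland control replicate 2 (-0.47, adjusted p = 0.00177), and in mutant-labelled libraries in 3 of 15, among them without gland mutant-labelled replicate 1 (-0.41, adjusted p = 0.0268). Fewer cells of a type and less RNA per cell cannot be told apart in these bulk libraries. As a share of all gene counts the 9 genes together took 190.2 ± 18.7 CPM in mutant-labelled glands and 191.5 ± 18.8 CPM in control glands, and 1384 ± 60.5 CPM in mutant-labelled discs and 1508 ± 21.0 CPM in control discs.

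The make-up of the HP1 paralogs differed between the tissues accordingly. Of the summed level per kb of HP1a, HP1b and HP1c, HP1a took 63.4, 63.8 and 59.8% in mutant-labelled glands and 67.5, 63.6 and 64.8% in control glands. In discs it took 73.3, 76.4 and 74.4% in mutant-labelled libraries and 74.7, 75.3 and 75.1% in control libraries. All 6 gland libraries lay below all 6 disc libraries, and within each tissue the mutant-labelled and control libraries overlapped. HP1c took 30.25 ± 2.87% in mutant-labelled glands and 28.2 ± 0.957% in control glands, and 14.1 ± 1.77% in mutant-labelled discs and 12.7 ± 0.254% in control discs. These shares within a library do not depend on the scaling factors. Exons of CG17141 overlap 16.2% of those of HP1c on the opposite strand. Reads there may be left uncounted if strand was not used, which bears on the level and share of HP1c and was not tested.

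**Figure D2:**
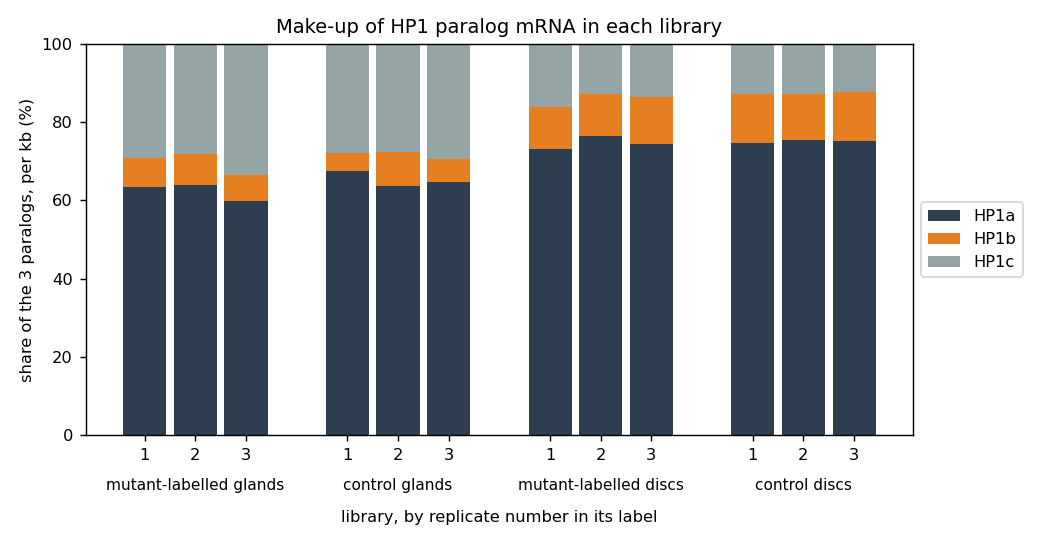
Share (%) of the summed level per kb of the 3 HP1 paralogs taken by each of them in each library, with the groups side by side. HP1c takes 27.5 to 33.5% in the 6 gland libraries and 12.4 to 16.1% in the 6 disc libraries.

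Over the 12 libraries, the genes most like HP1a by Pearson correlation of normalized log2 CPM were CG1142 (r = 0.9966), U2af38, which encodes the small subunit of a splicing factor (0.9956), CCT8, which encodes a chaperonin subunit (0.9955), CG9107 (0.9949) and CG6712 (0.9949), among 10184 genes ranked. Of the other 8 genes, HP1b came nearest, at r = 0.979 and rank 458. HP1c (0.815) and ADD1 (0.742) were the farthest from it, at ranks 3339 and 3719. Most of the spread behind these values is the difference between the tissues, since the 12 libraries fall into glands and discs, and the values are a description of these libraries.

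Within glands, values are normalized CPM on a scale of the gland libraries alone. ADD1 and HP4 rose in mutant-labelled glands and none of the other 7 genes passed the test, a count of 2 of 9 (22.2%) where 13.2% of the 9441 genes tested passed. The transcripts of the 3 HP1 paralogs were not among them. The median log2 change of the 9 genes was 0.072, against -0.039 over all genes tested. Groups without overlap were seen in 3 of the 9 genes, where 32.0% of all genes tested had them.

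ADD1 had 27.8, 37.0 and 36.6 CPM in mutant-labelled glands, against 15.8, 14.6 and 19.5 CPM in control glands. Every mutant-labelled library lay above every control library. The change was 2.03-fold (log2 1.02 ± 0.19 SE, adjusted p = 0.0123). The call was lost without gland control replicate 1 (adjusted p = 0.0539) and without gland mutant-labelled replicate 2 (0.0549), within a range of 0.000138 to 0.0549 over 15 alternatives.

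HP4 had 9.54, 8.41 and 7.48 CPM in mutant-labelled glands, against 4.69, 4.88 and 3.97 CPM in control glands, again without overlap. The change was 1.89-fold (log2 0.91 ± 0.19, adjusted p = 0.0190). The control libraries held 92, 95 and 210 counts of HP4, the fewest of the 9 genes, and the call was lost without gland control replicate 1 (adjusted p = 0.0632) or 3 (0.0767), without mutant-labelled replicate 1 (0.0816) or 2 (0.0732) and with total counts as library sizes (0.0534). The coding neighbours of HP4, CG8042 and CG8209, were measured at log2 changes of 0.046 and -0.038 in glands and did not pass the test. Among coding neighbours of the other genes, SLC5A11 beside HP1a (log2 1.23, adjusted p = 0.0193) and GstE13 beside Su(var)2-10 (1.49, 0.0121) rose in glands. The rest of those tested did not pass there.

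The 3 paralogs overlapped between the groups in glands. HP1a had 58.6, 45.9 and 38.0 CPM in mutant-labelled glands, against 51.8, 55.3 and 44.0 CPM in control glands, with a 95% interval of its log2 change of -0.56 to 0.39. HP1c had 24.0, 17.9 and 18.9 CPM in mutant-labelled glands, against 18.96, 21.3 and 17.7 CPM in control glands (interval -0.34 to 0.49). HP1b had 9.82, 8.41 and 6.10 CPM in mutant-labelled glands, against 5.15, 11.1 and 5.75 CPM in control glands, and control replicate 2 stood above every other gland library. Its interval of -0.60 to 0.91 was the widest of the 9.

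Of the remaining partners, Su(var)2-10 had 19.98, 23.1 and 20.8 CPM in mutant-labelled glands, against 23.3, 27.4 and 32.0 CPM in control glands. Its groups did not overlap, and its log2 change of -0.37 (interval -0.78 to 0.033, adjusted p = 0.225) did not pass. Su(var)2-HP2 had 14.6, 19.6 and 14.1 CPM in mutant-labelled glands, against 17.5, 20.6 and 24.1 CPM in control glands, with overlap, at the same log2 change of -0.37 (interval -0.84 to 0.10). Su(var)3-7 had 31.1, 30.8 and 37.5 CPM in mutant-labelled glands, against 26.8, 25.2 and 32.4 CPM in control glands (log2 0.24, interval -0.17 to 0.64). Its groups overlapped, as did those of HP5, which had 7.82, 8.35 and 9.52 CPM in mutant-labelled glands, against 9.63, 7.19 and 10.6 CPM in control glands (log2 -0.10, interval -0.56 to 0.36).

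Markers of the gland itself and of other cell types moved with the gland groups. Their sums are on the scale of all 12 libraries, unlike the CPM of the 9 genes above, and their calls are from the gland libraries alone. Salivary gland markers (10 genes, summed) came to 491947 to 509673 normalized CPM in mutant-labelled glands and 404820 to 451062 in control glands, with ng2 lower. Fat body markers (7 genes, summed) came to 44121 to 54847 normalized CPM in mutant-labelled glands and 20543 to 31094 in control glands, and 3 of the 7 (Lsp1beta, Lsp2 and apolpp) rose. Neuronal markers (5 genes, summed) came to 64.0 to 90.5 CPM in mutant-labelled glands and 28.8 to 42.4 CPM in control glands, with elav and Syt1 higher, and log2 changes of the 4 tested ran from -1.63 to 2.58. Hemocyte markers (6 genes) came to 30.7 to 50.6 CPM in mutant-labelled glands and 22.2 to 35.1 CPM in control glands, and none passed. Tracheal markers (6 genes) came to 85.1 to 106 CPM in mutant-labelled glands and 109.5 to 129 CPM in control glands, with dysf lower. Wing disc markers (9 genes) came to 86.5 to 99.9 CPM in mutant-labelled glands and 113.7 to 141.5 CPM in control glands, with sd lower. Muscle markers (6 genes) overlapped between the gland groups and none passed. The germline marker osk had no count in any gland library. The part of these cells in the changes of ADD1 and HP4 was not tested.

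In wing discs, on a scale of the disc libraries alone, ADD1 rose and Su(var)2-HP2, Su(var)2-10, HP1b and Su(var)3-7 fell in mutant-labelled libraries. These are 5 of 9 genes (55.6%), where 31.3% of the 9379 genes tested passed, and 4 falls, where 15.2% of genes fell. The falls were 1.15-fold to 1.32-fold. The median log2 change of the 9 genes was -0.091, against 0.00016 over all genes tested. The groups did not overlap in the same 5 genes, where 47.4% of all genes tested had groups apart.

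ADD1 had 163, 165 and 173 CPM in mutant-labelled discs, against 120, 119 and 118 CPM in control discs. The groups were apart and the control libraries lay within 2 CPM of each other. The change was 1.405-fold (log2 0.49 ± 0.059, adjusted p = 0.000173), and ADD1 passed the test under all 15 alternatives, with adjusted p of at most 0.0395. CG30036, whose exons overlap 3.02% of those of ADD1 on the opposite strand, averaged 1.56 CPM in mutant-labelled discs and 0.502 CPM in control discs. No source used here says whether strand was used in counting. The listed genes SuUR, Orc3 and moi, with 100% of their exon length overlapped on the same strand, had 0 CPM in every library. Reads in overlaps may thus be left uncounted, also those on opposite strands if strand was not used.

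Su(var)2-HP2 had 182, 204 and 189 CPM in mutant-labelled discs, against 264, 260 and 235 CPM in control discs (log2 -0.40 ± 0.072, adjusted p = 0.00234). Su(var)2-10 had 164, 167 and 176 CPM in mutant-labelled discs, against 203, 204 and 199 CPM in control discs (log2 -0.26 ± 0.060, adjusted p = 0.00873). In both genes every mutant-labelled library lay below every control library. The call of Su(var)2-10 was lost without disc control replicate 2 (adjusted p = 0.0503). With all 12 libraries fitted together, which gives discs the larger spread of glands, the calls of Su(var)2-HP2 (0.209) and Su(var)2-10 (0.361) were lost. Of their coding neighbours, Sec61beta beside Su(var)2-HP2 (log2 -0.22, adjusted p = 0.0396) and GstE13 beside Su(var)2-10 (-0.31, 0.0154) also fell in discs. Beside the other genes, Ssb-c31a at HP1a (0.38, 0.019), APC4 at HP1b (0.54, 0.00056) and CG31139 at HP1c (1.68, 0.0102) rose. The rest of the neighbours tested did not pass in discs.

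HP1b had 79.8, 90.8 and 90.4 CPM in mutant-labelled discs, against 101, 98.7 and 104 CPM in control discs (log2 -0.22 ± 0.072, adjusted p = 0.0414). Su(var)3-7 had 151, 155 and 152 CPM in mutant-labelled discs, against 180, 172 and 176 CPM in control discs (log2 -0.21 ± 0.058, adjusted p = 0.0218). The groups of both genes were apart, by small margins relative to their levels. The call of HP1b was lost without disc control replicate 1 (adjusted p = 0.0865), 2 (0.0941) or 3 (0.147), without mutant-labelled replicate 1 (0.0946) or 2 (0.0702), with upper-quartile factors (0.0551), with no filter on low counts (0.0651) and with all 12 libraries fitted together (0.739). That of Su(var)3-7 was lost without disc control replicate 1 (0.0689), 2 (0.0692) or 3 (0.0795), without mutant-labelled replicate 2 (0.0610), with no filter (0.0531) and with all 12 libraries (0.425). Exons of TBC1D5 overlap 13.7% of those of Su(var)3-7 on the opposite strand, and TBC1D5 averaged 59.7 CPM in mutant-labelled discs and 65.0 CPM in control discs.

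The other 4 genes overlapped between the disc groups. HP4 had 68.6, 66.3 and 54.7 CPM in mutant-labelled discs, against 58.1, 49.9 and 50.3 CPM in control discs (log2 0.26 ± 0.10, adjusted p = 0.0753). It passed the test in 4 of 15 alternatives. These were without mutant-labelled replicate 3 (adjusted p = 0.0144) or control replicate 1 (0.0461), the libraries that overlapped, with a block of replicate numbers (0.0375) and with no filter on low counts (0.04998). HP1a had 383, 442 and 387 CPM in mutant-labelled discs, against 422, 434 and 435 CPM in control discs, with a 95% interval of its log2 change of -0.25 to 0.067. HP1c had 74.9, 65.3 and 62.9 CPM in mutant-labelled discs, against 64.4, 65.4 and 63.7 CPM in control discs (interval -0.11 to 0.25). HP5 had 93.8, 99.0 and 93.2 CPM in mutant-labelled discs, against 98.7, 90.8 and 99.1 CPM in control discs (interval -0.16 to 0.14), so the intervals of these 3 genes hold no change beyond 0.25 on the log2 scale in either direction.

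**Figure D3:**
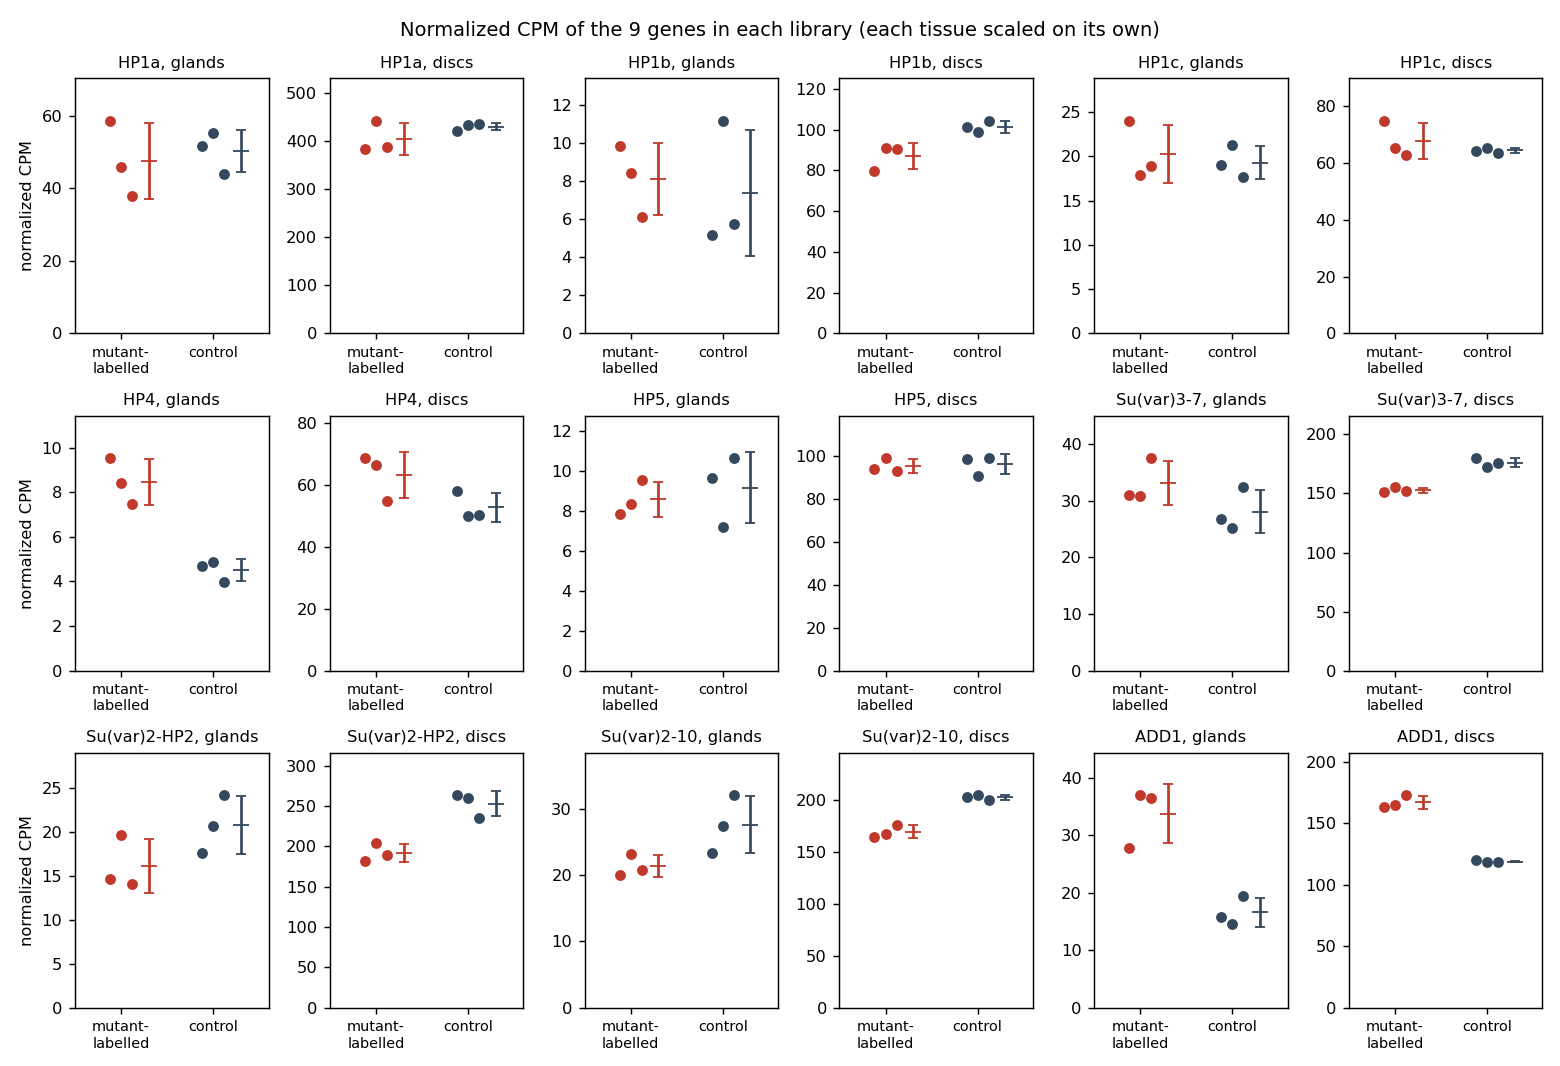
Normalized CPM of the 9 genes in each library, with a panel for each gene and tissue, mutant-labelled left of control, and bars for mean ± SD (n = 3). ADD1 is apart between the groups in both tissues, whereas HP4 is apart in glands and overlaps in discs.

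Markers moved with the disc groups as well. Their sums are again on the scale of all 12 libraries, and their calls are from the disc libraries alone. Wing disc markers (9 genes, summed) came to 1146 to 1331 normalized CPM in mutant-labelled discs and 1499 to 1534 in control discs, and 6 of 9 fell. Hemocyte markers (6 genes) came to 6.26 to 9.62 CPM in mutant-labelled discs and 17.5 to 25.9 CPM in control discs, and 3 of 6 fell. Muscle markers (6 genes) came to 18.3 to 21.9 CPM in mutant-labelled discs and 10.8 to 15.2 CPM in control discs, with Mlc2 higher. The log2 changes of the 5 muscle markers tested ran from -0.46 to 1.45. The sums of fat body (apolpp higher), tracheal (serp higher, dysf lower) and neuronal markers (futsch lower) overlapped between the disc groups. Gonad markers (5 genes) came to 22.5 to 27.3 CPM in mutant-labelled discs and 4.47 to 7.26 CPM in control discs, with vas and bam higher, aub lower, and osk at 0 in the control libraries. The part of these in the changes above was not tested.

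The change in glands minus the change in discs was tested over all 12 libraries. HP4 alone of the 9 genes passed, at a difference of 0.74 on the log2 scale (95% interval 0.28 to 1.21, adjusted p = 0.0457), where 10.1% of the 10185 genes tested passed. That call was lost in 16 of 20 alternatives, among them limma-voom (0.0506), RLE factors (0.0615) and the omission of any disc library. Over the 20 alternatives the difference lay between 0.58 and 0.86. For ADD1 the difference was 0.61 (interval 0.17 to 1.04, adjusted p = 0.0802) and for Su(var)3-7 it was 0.52 (0.14 to 0.90, adjusted p = 0.0880). Both passed with DESeq2 (0.0230 for ADD1 and 0.0156 for Su(var)3-7) and without gland control replicate 3 (0.0207 and 0.0166 in that order), and ADD1 also without gland mutant-labelled replicate 1 (0.0390). For Su(var)2-HP2 it was 0.11 (-0.42 to 0.64) and for Su(var)2-10 it was -0.041 (-0.48 to 0.39), so the falls called in discs were not shown to differ from the changes in glands. HP1b, at 0.46 (-0.36 to 1.27), HP1a, at 0.10 (-0.42 to 0.61), HP1c and HP5 did not pass either, but without gland control replicate 2, in which HP1b stood highest, the difference of HP1b was 0.90 and passed (adjusted p = 0.0397).

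**Figure D4:**
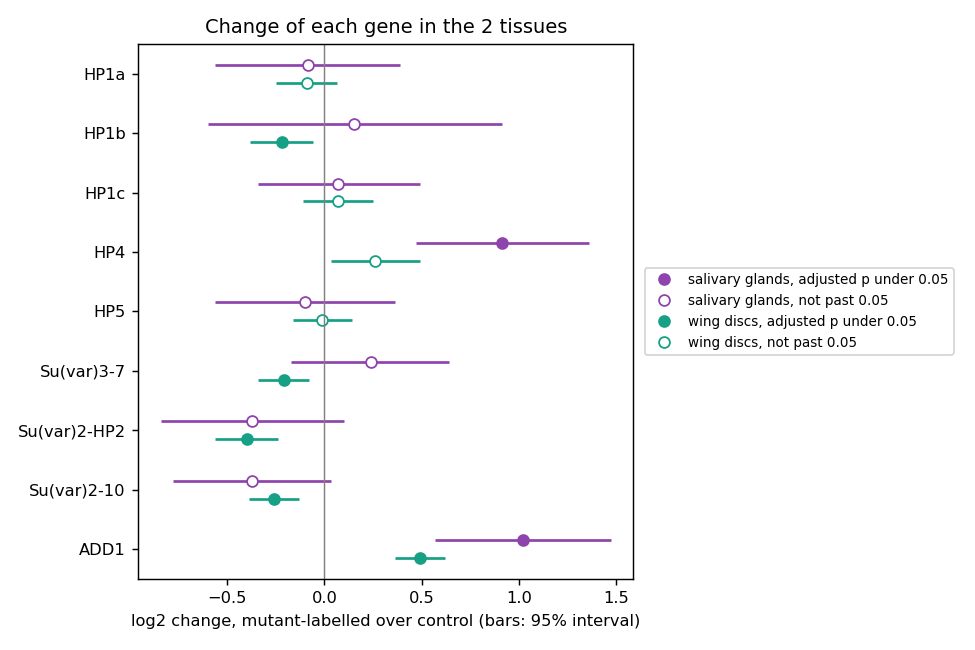
Log2 change of each of the 9 genes, mutant-labelled over control, in glands and in discs, with 95% intervals and filled points for adjusted p under 0.05. Intervals are wider in glands, and ADD1 lies above 0 in both tissues (1.02 in glands and 0.49 in discs).

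Genes of related pathways were counted from lists, with CPM again on the scale of each tissue alone. Of 4 genes of H3K9 methyltransferases and a cofactor, Su(var)3-9 and wde rose in glands, whereas in discs wde rose and Su(var)3-9 fell. The gene wde encodes Windei, the cofactor of SetDB1 whose human counterpart is ATF7IP. It averaged 37.0 ± 6.15 CPM in mutant-labelled glands and 10.9 ± 0.595 CPM in control glands (log2 1.76 ± 0.18, adjusted p = 0.000864), and 266 ± 10.2 CPM in mutant-labelled discs and 151 ± 3.29 CPM in control discs (log2 0.82 ± 0.061, adjusted p = 5.45e-06). Its libraries were apart in both tissues, and its change was larger in glands by 1.03 on the log2 scale (adjusted p = 0.00521).

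Of the SUMO pathway, which Su(var)2-10 belongs to as a ligase, 1 of 8 genes tested rose in glands and none fell, while in discs 2 of 9 rose and 2 fell. Sumo itself had 129, 112 and 114 CPM in mutant-labelled glands, against 60.5, 64.9 and 46.7 CPM in control glands (log2 1.05 ± 0.19, adjusted p = 0.0106). In discs it had 750, 677 and 642 CPM in mutant-labelled libraries, against 508, 512 and 547 CPM in control libraries (log2 0.40 ± 0.074, adjusted p = 0.00268). An annotated mdg1 insertion overlaps 6.86% of the exon length of Sumo. Sumo was apart between the groups in both tissues, while Su(var)2-10 lay lower in mutant-labelled libraries of both and passed in discs. The other SUMO genes that moved in discs were the SUMO ligase gene qjt, which was higher (3.44 ± 0.369 CPM in mutant-labelled discs and 0.238 ± 0.129 CPM in control discs), and the SUMO protease genes Ulp1 (log2 -0.24) and velo (-0.28), which were lower. The call of Ulp1 was lost with all 12 libraries (0.447) and without disc control replicate 1 (0.0924), 2 (0.0736) or 3 (0.0685) or mutant-labelled replicate 1 (0.0675) or 2 (0.0563). Those of Sumo (0.0959) and velo (0.378) in discs were lost with all 12 libraries alone among 15 alternatives.

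Among 22 other heterochromatin proteins tested, none rose and 2 fell in glands, and 1 rose and 3 fell in discs. Parp1, which encodes poly(ADP-ribose) polymerase, fell in both tissues. It averaged 1.62 ± 0.471 CPM in mutant-labelled glands and 15.4 ± 3.16 CPM in control glands (log2 -3.25 ± 0.27), and 9.24 ± 1.11 CPM in mutant-labelled discs and 98.8 ± 12.7 CPM in control discs (log2 -3.42 ± 0.12). Trl, which encodes the GAGA factor, fell in glands (log2 -0.67, adjusted p = 0.0432), but 77.8% of its exon length is overlapped by other genes on the same strand, so its reads are uncertain. Its call was lost in 9 of 15 alternatives, among them the omission of any single gland library (adjusted p 0.0731 to 0.143). In discs Lhr, an HP1a-binding protein of pericentric heterochromatin, rose (log2 0.41, adjusted p = 0.0361), and vig (-0.44) and the gene of the H3 serine 10 kinase JIL-1 (-0.41) fell. The call of Lhr was lost with all 12 libraries (0.331) and without disc control replicate 2 (0.109) or 3 (0.137) or mutant-labelled replicate 1 (0.0786) or 2 (0.0728). Those of vig (0.0625) and JIL-1 (0.279) were lost with all 12 libraries alone among 15 alternatives. The median log2 change of the list was -0.020 in glands and -0.091 in discs.

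Of 6 genes of the HP1c complex, none passed in glands, where none had an unadjusted p under 0.05 either. In discs Dsp1 rose (log2 0.25, adjusted p = 0.0185) and woc, with 28.5% of its exon length overlapped by an antisense gene, fell (-0.20, adjusted p = 0.0345), while HP1c itself was measured at 0.070. The call of Dsp1 was lost with all 12 libraries (0.256) and without disc control replicate 2 (0.0806) or 3 (0.0952) or mutant-labelled replicate 2 (0.0502). That of woc was lost with all 12 libraries (0.653) and without control replicate 1 (0.0904), 2 (0.108) or 3 (0.0864) or mutant-labelled replicate 1 (0.0542) or 3 (0.0801). Of the origin recognition complex and centromere genes, whose products include partners of HP1a, none of 10 passed in glands by edgeR's test, also at an unadjusted p under 0.05, and 3 of 11 fell in discs, namely Orc4 (log2 -0.57), Orc1 (-0.37) and Orc2 (-0.35). Orc4 passed in all 15 alternatives. With all 12 libraries fitted together the calls of Orc1 (adjusted p = 0.404) and Orc2 (0.307) were lost. They were also lost without disc control replicate 1 (Orc1 0.105, Orc2 0.0726), control replicate 2 (0.0730 and 0.0957 in that order), mutant-labelled replicate 1 (0.0813 and 0.0869) or mutant-labelled replicate 3 (0.0808 and 0.101), and that of Orc2 without control replicate 3 (0.132). Orc4 (2R:24795740-24797414) lies close to egg (2R:24775534-24779901), one of the mutated genes. Of 4 telomere capping genes tested, none passed in glands (2 had an unadjusted p under 0.05) and HipHop, an HP1a partner at telomeres, fell in discs (-0.32, adjusted p = 0.0493). The disc groups of HipHop overlapped, and its call was lost in 7 of 15 alternatives, with limma-voom (0.0552), upper-quartile factors (0.0584), all 12 libraries (0.633) and without disc control replicate 1 (0.0914) or 2 (0.196) or mutant-labelled replicate 1 (0.128) or 3 (0.119). Of 4 further HP1-related genes, mostly expressed in the germline, none had enough counts to be tested in glands, and HP6 alone had in discs, where it had 0.918, 1.10 and 1.35 CPM in mutant-labelled libraries, against 0.0447, 0.200 and 0.0729 CPM in control libraries (adjusted p = 0.000927). Of all 57 genes of these lists tested in discs, 29.8% passed, against 31.3% of all genes, and of 54 in glands 9.26% passed, against 13.2%.

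**Figure D5:**
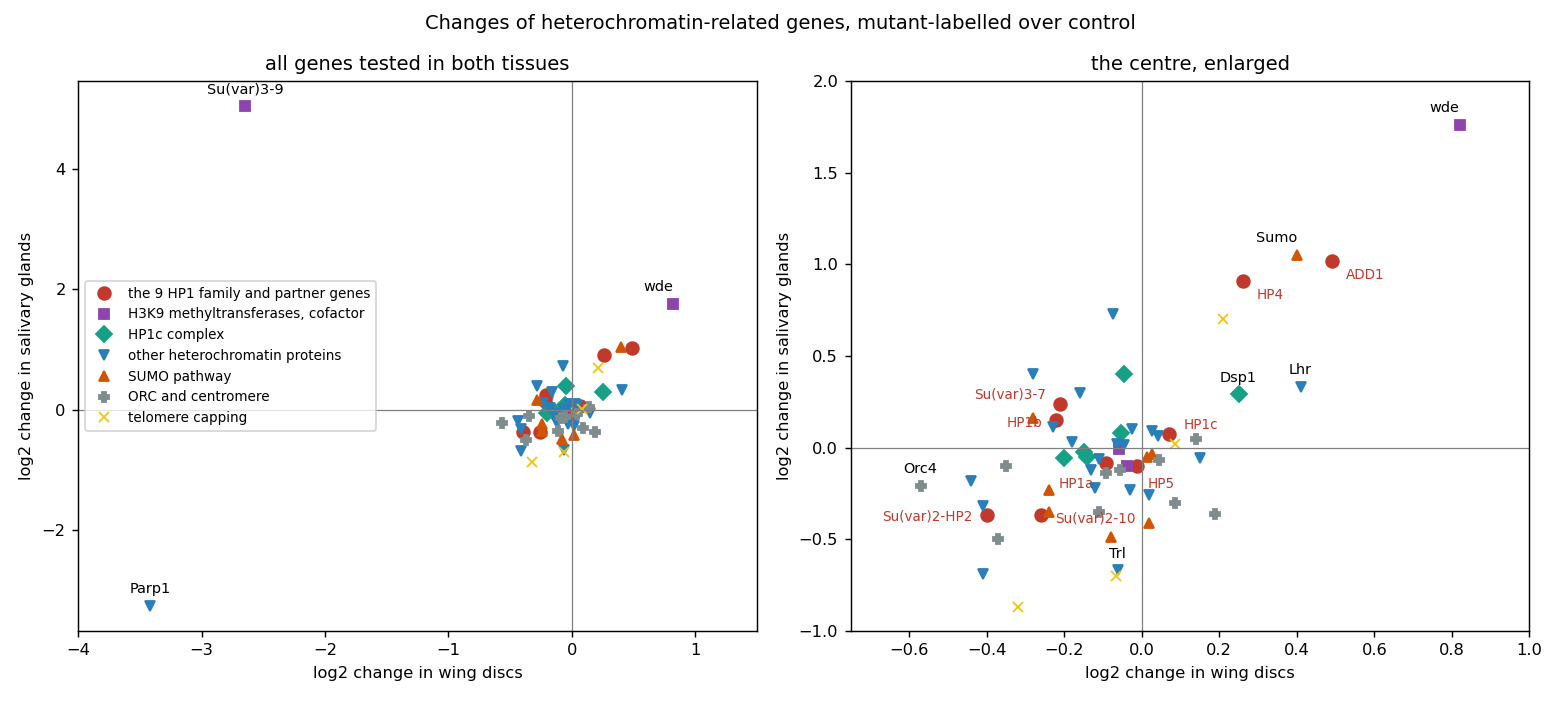
Log2 change, mutant-labelled over control, in discs (horizontal) and glands (vertical) of the 9 genes and the listed pathway genes tested in both tissues, all genes in the left panel and the centre enlarged in the right panel. ADD1, HP4, Sumo and wde lie to the upper right, and Parp1 to the lower left.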

How the data were processed

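Per the labels' protocols, polyadenylated RNA was sequenced as 150 bp read pairs from 1000 ng of RNA per library. The authors deposited whole-number read counts per FlyBase gene ID for each of the 12 libraries. The submitters' processing notes name cutadapt, HISAT2, featureCounts, BDGP6 and dm6, and versions, options and the strand setting are not given in the sources used here. Tables of transposable elements were not used here. Gene symbols, positions and exon lengths came from Ensembl release 115 (BDGP6), in which 17710 of 17807 IDs had a model. A count of 3 came to 0.0521 to 0.172 CPM of all gene counts, and intervals cover the spread between libraries.

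Counts were fitted with edgeR 4.0.16 in R 4.3.3 (filterByExpr defaults, TMM factors, quasi-likelihood test, p adjusted by Benjamini-Hochberg across every gene tested), separately for each pair of groups and over all 12 libraries for the difference between tissues. The fits were checked on simulated data. SE is the log2 change divided by the square root of F. Alternatives were RLE and upper-quartile factors, total counts as library sizes (added after seeing the data), no filter on low counts, the 20 most abundant genes removed, limma-voom (limma 3.58.1), DESeq2 1.42.0, a block of replicate numbers, all 12 libraries fitted together and each library left out.

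The 9 genes and all lists were chosen with earlier results of these data known. Named genes are the 9, egg, Su(var)3-9, wde, the 5 genes most correlated with HP1a (log2 CPM, prior count 2), and up to 4 genes per list and direction with the lowest p among those that passed. Of the listed symbols, 1 of 24 heterochromatin genes and 1 of 6 telomere genes matched no ID. No paired analysis is given in the main results because in no comparison did the deviations of every same-numbered pair of libraries correlate at r over 0.1.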

Additional observations from a re-analysis of the deposited data

Results flagged for a closer look

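The change of 4 genes differed between the tissues by a test of the difference itself, the change in glands minus the change in discs on the log2 scale over all 12 libraries. HP4 differed by 0.74 (adjusted p = 0.0457 by edgeR's quasi-likelihood test), and the call was lost in 16 of 20 alternatives. Sumo differed by 0.73 (adjusted p = 0.0379), and the call was lost in 14 of 20. The SetDB1 cofactor gene wde differed by 1.03 (adjusted p = 0.00521) and passed in all 20. Su(var)3-9, whose level in mutant-labelled glands goes against the label, differed by 7.77 (adjusted p = 4.15e-08).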

How the results depend on the processing

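No value of a named gene called by the test changed sign under the alternatives run. With all 12 libraries fitted together, 2360 genes passed in glands (1243 with glands alone), and 1032 in discs (2932 with discs alone), where 1 of the 9 genes passed. With total counts as library sizes, 1 of the 9 passed in glands, and the share of higher calls among all calls was 22.3% for control glands over discs (48.8% with TMM), 21.9% for mutant-labelled glands over discs (49.0%) and 40.9% for the difference between tissues (55.7%). For the difference between tissues, none of the 9 passed with RLE factors, upper-quartile factors, total counts, no filter, the 20 most abundant genes removed or limma-voom (0 by adjusted p, 3 at an unadjusted p under 0.05, 2 with total counts), whereas DESeq2 called 3, and 1574 genes in all (1027 by edgeR). Leaving out 1 library gave 705 to 1512 genes in glands, with 0 to 2 of the 9, 1883 to 2984 in discs, with 2 to 6, and 662 to 1366 for the difference, with 0 to 2. The replicate numbers shared by the groups were not taken as pairs, since some correlations of deviations lay under 0.1 in each comparison. They were 0.00911, 0.302 and 0.307 in glands and 0.0927, -0.075 and 0.115 in discs. In mutant-labelled glands over discs they were 0.0886, 0.0265 and 0.118, and there alone every library correlated best with its own number. Whether the numbers mark true pairs is not settled by these values. With the replicate numbers as a block, 1570 genes passed in glands, 3007 in discs and 1162 for the difference, and HP4 passed in discs (adjusted p = 0.0375). The cause of these shifts was not tested. Spread between libraries limits glands more than discs, as the wider intervals there show.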
